A study of Homo sapiens with 12 samples.

Results

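The genes described here are the KLHL, KBTBD and KCTD adaptors that carried at least 1 m6A peak in 143B cells, a human osteosarcoma line. They were chosen by symbol, after the gene number of each peak was turned into a symbol, and by having a peak in any of 6 peak lists. Of 10536 gene numbers with a peak, 47 met this rule, namely 23 KLHL, 7 KBTBD and 17 KCTD genes. Of these, 46 code for protein and 1, KCTD21-AS1, is a noncoding antisense RNA whose peaks overlapped those of KCTD21. Because a peak was required, the presence of peaks in these genes is not a finding. At the threshold itself, KLHL14 entered with a single peak in 1 list, while 21 of the 67 coding symbols of these families had no peak in the lists analysed here. Those with a peak were 23 of 37 KLHL, 7 of 9 KBTBD and 16 of 21 KCTD coding symbols.

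The cells had been transfected for 48 h with siRNAs against ALKBH5, the group called ALKBH5 knockdown, or with scrambled siRNA. ALKBH5 removes the methyl group of N6-methyladenosine (m6A) from RNA. RNA fragments bound by an m6A antibody were sequenced, and the peak lists came from 3 ALKBH5 knockdown and 3 scrambled immunoprecipitates. The matching inputs, 3 of each group, were not analysed here. Per the labels' protocols, the replicate number stands for a protocol shared by both groups. Replicate 1 used polyadenylated RNA, replicate 2 used total RNA with a kit and its own antibody, and replicate 3 used polyadenylated RNA with a further antibody. Against this protocol, the labels list 1 and the same antibody product for all 6 immunoprecipitates, a conflict that could not be settled. Knockdown and scrambled libraries of the same number are called a pair. All libraries came from 1 cell line, and nothing in the sources says whether replicates were separate cultures, so p-values measure only the spread between these libraries.

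The 6 lists held between 5677 and 18724 peaks, with the 2 total RNA lists the shortest at 5917 peaks in the knockdown and 5677 in the scrambled library. The lists hold no read counts, so the depth is unknown and no interval for counting error could be given. A peak call is not an RNA level: less RNA of a gene, less m6A per transcript and fewer reads cannot be told apart from a missing call. For the same reason the lists do not measure the level of ALKBH5. They do not check the cell type by RNA level either, although 5 of 11 osteoblast and mesenchyme markers carried a peak, against 0 of 6 epithelium, 1 of 5 blood and 0 of 3 endothelium markers.

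KLHL, KBTBD and KCTD proteins carry a BTB domain, through which many of them bind CUL3, the scaffold of a ubiquitin ligase. KLHL and KBTBD proteins usually hold their substrates with Kelch repeats, so that each adaptor brings the ligase to its own targets. KCTD proteins form ring-shaped oligomers, and while several work with CUL3, others serve as subunits of receptors or hold back transcription factors.

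The 47 genes held 421 peaks in all lists together, which joined into 99 regions wherever exon blocks of the same strand shared 1 bp or more. The median gene had 7 peaks summed over the 6 lists, against 6 for all genes with a peak. By family the median was 10 peaks for KLHL, 10 for KBTBD and 7 for KCTD genes. The number of regions per gene ran from 1, in 15 genes, to 6 in KLHL5, KLHL29 and KBTBD11. The exon length covered by a gene's peaks, averaged over the 6 libraries, ranged from 55 nt in KLHL4 to 1482 nt in KCTD12, a subunit of the GABA-B receptor complex in neurons.

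**Figure D1:**
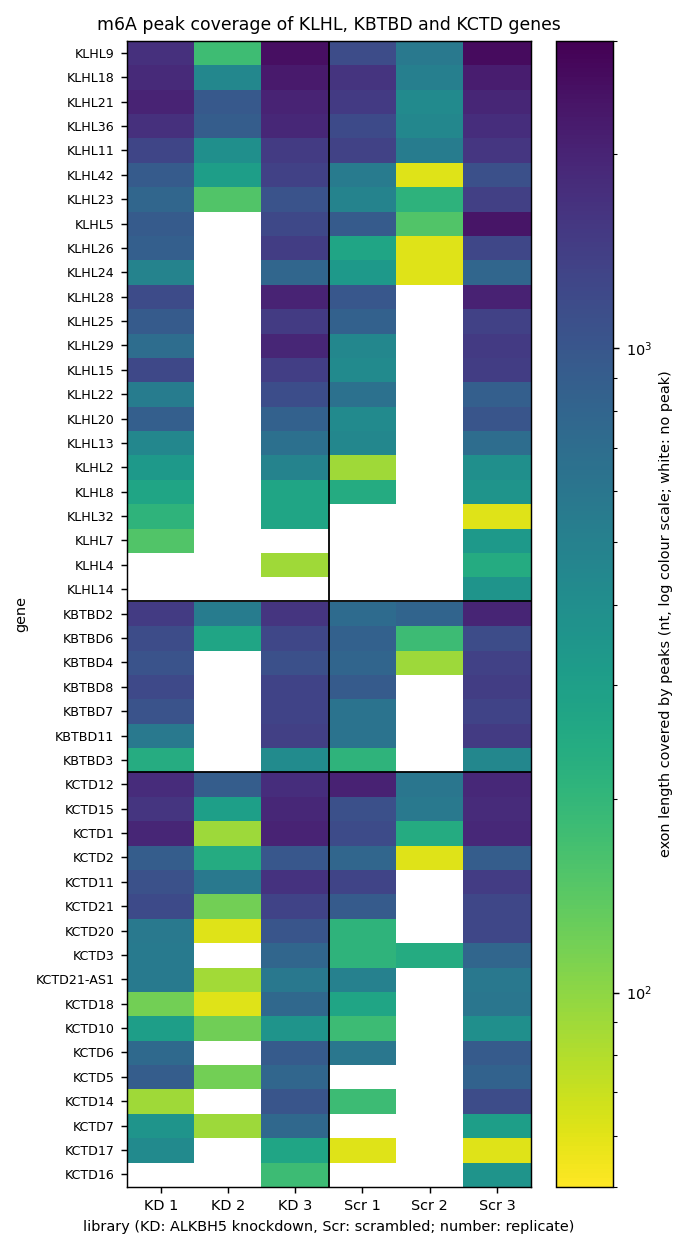
Exon length covered by peaks (nt, log colour scale) for each of the 47 genes (rows, by family) in each library (columns, ALKBH5 knockdown left of scrambled). White cells have no peak. The second library of each condition, from total RNA, is white for most genes, and 8 KCTD symbols, KCTD21-AS1 included, have colour in the second knockdown library and none in the second scrambled library.

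The number of adaptor genes called was close between the conditions and lowest in both total RNA libraries, which also had the shortest lists. In knockdown libraries 44, 21 and 45 of the 47 genes were called in replicates 1, 2 and 3, against 40, 18 and 47 in scrambled libraries. Of all genes with a peak, knockdown libraries called 78.5%, 32.0% and 86.6%, against 66.5%, 31.4% and 88.2% in scrambled libraries. The means were 36.67 ± 13.6 genes in knockdown and 35 ± 15.1 genes in scrambled libraries (SD, n = 3 each), a difference of 1.667 genes. These SDs include the protocol difference shared by both libraries of a pair, so they do not measure the spread within pairs. Knockdown called more of the genes in pairs 1 and 2 and fewer in pair 3. Peaks in these genes numbered 91, 33 and 89 in knockdown libraries, against 88, 27 and 93 in scrambled libraries.

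Covered exon length was longer in knockdown in the first and second pair and not in the third. Knockdown libraries covered 39.18, 6.907 and 51.91 kb of these genes, against 28.19, 5.827 and 53.17 kb in scrambled libraries. The knockdown over scrambled ratio was 1.39, 1.19 and 0.976 in pairs 1, 2 and 3, beside 1.57, 1.13 and 1 for all genes with a peak. The ranges of both conditions overlapped, with means of 32.67 ± 23.2 kb in knockdown and 29.06 ± 23.7 kb in scrambled libraries (SD, n = 3 each). Since the genes were selected with earlier results of these data known, no test was made over the group.

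Calls were mostly shared between conditions. Peaks were called in all 6 libraries for 13 of the 47 genes (27.7%, against 23.3% of all genes). These were KLHL9, KLHL11, KLHL18, KLHL21, KLHL23, KLHL36, KLHL42, KBTBD2, KBTBD6, KCTD1, KCTD2, KCTD12 and KCTD15. Another 11 genes were called in 5 libraries (23.4%, against 12.7% of all genes) and 18 in 4 libraries (38.3%, against 25.6%). KLHL32 was called in 3 libraries, KLHL4 and KCTD16 in the third library of each condition alone, KLHL7 in knockdown library 1 and scrambled library 3, and KLHL14 in the third scrambled library, where its peak covered 359 nt.

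Calls differed between the polyadenylated and the total RNA libraries in many of these genes. All 4 libraries from polyadenylated RNA and neither from total RNA called 16 of the 47 genes (34%, against 23.3% of all genes). They included KLHL2, an adaptor for the WNK kinases, KLHL15, which targets a regulatory subunit of protein phosphatase 2A, KLHL20, an adaptor for DAPK1 and PML, KLHL22, which targets DEPDC5, KLHL25, which targets the translation repressor 4E-BP1, and KBTBD8, which acts through TCOF1 and NOLC1. By family these were 9 KLHL, 4 KBTBD and 3 KCTD genes. Total RNA was also run with its own kit and, per the protocol, its own antibody, and had the shortest lists, and these cannot be told apart from the type of RNA.

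More knockdown than scrambled libraries called 9 of the 47 genes (19.1%, against 26.1% of all genes), and fewer knockdown libraries called 6 genes (12.8%, against 17.1% of all genes). The other 32 genes (68.1%) were called equally often in both conditions, beside 56.8% of all genes. By 2 libraries more, knockdown called KCTD5 and KCTD7 (2 of 47, against 3.02% of all genes with 2 or 3 more). No gene of the group was called in 2 or 3 fewer knockdown libraries, beside 1.04% of all genes. The shares over the whole group were thus near or below those of all genes. Without the total RNA pair, 3 genes were called in more and 1 in fewer knockdown libraries. The shares of all genes without that pair were not counted, so these 2 counts have no value to be read beside.

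The families differed in where these genes fell, as a description that was not tested. Of the 9 genes called in more knockdown libraries, 7 were coding KCTD genes, namely KCTD5, KCTD7, KCTD10, KCTD11, KCTD18, KCTD20 and KCTD21, and the others were KCTD21-AS1 and KLHL32. Of the 6 called in fewer, KLHL5, KLHL14, KLHL24 and KLHL26 were KLHL genes, KBTBD4 was a KBTBD gene and KCTD3 a KCTD gene. In KLHL genes 18 of 23, and in KBTBD genes 6 of 7, were called equally often.

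Within pairs, a gene was counted as gained when the knockdown list called it and the scrambled list did not, and as lost in the reverse case. In the first pair 4 of the 47 genes were gained (16.9% of all genes were) and 0 were lost (5.00% of all genes). Those gained were KLHL7, KLHL32, KCTD5 and KCTD7. In the third pair 0 were gained (6.28% of all genes) and 2, KLHL7 and KLHL14, were lost (7.83% of all genes). KLHL7, a gene mutated in a form of retinitis pigmentosa, was therefore gained in one polyadenylated RNA pair and lost in the other.

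In the total RNA pair 8 of the 47 genes were gained (7.99% of all genes) and 5 were lost (7.35% of all genes). The gained genes were 7 of the 16 coding KCTD genes (43.8%) and the antisense RNA KCTD21-AS1, whose peak overlapped that of KCTD21, while 0 KLHL or KBTBD genes were gained. The 5 lost genes were KLHL5, KLHL24, an adaptor that targets keratin 14 in skin, KLHL26, KBTBD4, an adaptor mutated in medulloblastoma, and KCTD3. This pair also had the shortest lists. Its KCTD gains were singled out after the data were seen.

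**Figure D2:**
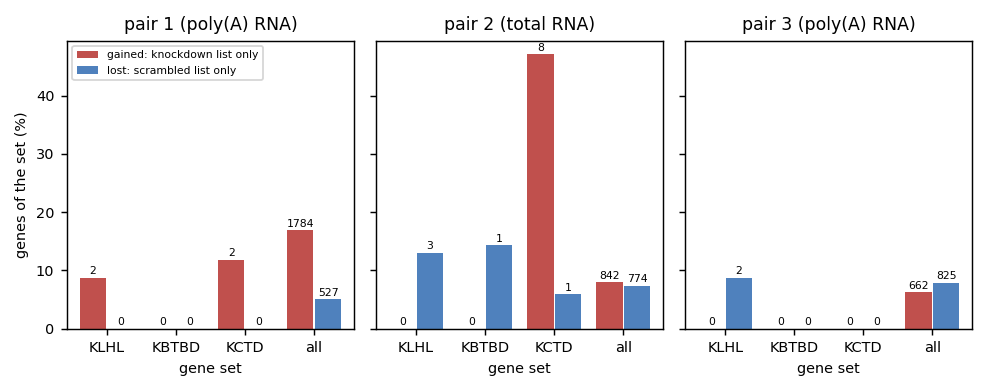
Share of genes gained (red, knockdown list alone) and lost (blue, scrambled list alone) within each pair, as a percentage of the genes of each family and of all 10536 genes with a peak, with the number of genes above each bar. In the total RNA pair 8 of 17 KCTD symbols, KCTD21-AS1 included, were gained, while pair 1 gained 2 and pair 3 gained 0.

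Most KCTD gains in total RNA were peaks with weak scores. Scores are given as percentiles of rank within a list, where 100 is the best. In the knockdown library the best peak of KCTD11 was at percentile 87.1 and that of KCTD10 at 62.4. The others were at 32.8 for KCTD7, 32.8 for KCTD21, 14.6 for KCTD5, 12.7 for KCTD18, 12.7 for KCTD21-AS1 and 10.2 for KCTD20. Keeping only the best-scored 50% of each list left 2 KCTD genes gained. KCTD3, lost in this pair, had its scrambled peak at percentile 82.9. The other lost genes had weaker scrambled peaks, at 43.7 for KLHL5, 42.6 for KBTBD4, 17 for KLHL24 and 8.3 for KLHL26. The median of the best percentile per gene was 32.8 over the 12 KCTD symbols called in the knockdown total RNA library and 77 over the 5 called in the scrambled one. These medians are over different genes. The 4 called in both had no common direction, with knockdown against scrambled at 16.7 and 74.2 in KCTD1 and 49.7 and 2.95 in KCTD2. KCTD12 had 91.7 and 77, and KCTD15 had 89.5 and 89.2.

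Among the gained KCTD genes, KCTD11 and KCTD21 belong to the set that, with KCTD6, holds back Hedgehog signalling through HDAC1. KCTD11 was covered over 1079, 570 and 1649 nt in knockdown libraries 1, 2 and 3, against 1290, 0 and 1438 nt in scrambled libraries. KCTD21 was covered over 1196, 120 and 1316 nt in knockdown libraries, against 928, 0 and 1256 nt in scrambled libraries. The polyadenylated RNA libraries of both conditions were alike in these genes, and the difference in calls came from total RNA alone. KCTD6 was covered over 746, 0 and 924 nt in knockdown libraries, against 596, 0 and 924 nt in scrambled libraries.

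The peaks of KCTD21 and KCTD21-AS1 overlapped each other on opposite strands in each of the 5 libraries that called them, so these 2 gains share a position. Peaks of KCTD14 overlapped those of the read-through gene NDUFC2-KCTD14 in 4 libraries, those of KLHL23 overlapped PHOSPHO2-KLHL23 in 6, and those of KBTBD4 overlapped PTPMT1 on the opposite strand in 4. Without these 5 genes, 6 KCTD genes were gained in total RNA. Peaks with no gene number overlapped same-strand peaks of KLHL9 in 6 libraries, of KCTD12 and KCTD21 in 5 each, and of KLHL25 and KLHL28 in 4 each. Values of all these genes are uncertain, since the lists do not say how overlapping peaks were assigned.

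KCTD5 and KCTD7 were the adaptors whose calls leaned most to the knockdown. KCTD5, a CUL3 adaptor that acts on G-protein beta-gamma subunits, was covered over 893, 120 and 772 nt in knockdown libraries, against 0, 0 and 833 nt in scrambled libraries. Every knockdown library called it, but the third scrambled library lay between the knockdown values (mean 595 ± 415.8 nt in knockdown and 277.7 ± 480.9 nt in scrambled libraries, SD, n = 3 each, two-sided exact permutation test p = 0.3). All of its peaks fell in 1 region at chr16:2757400-2758616 on the plus strand of hg19, and scored at percentiles 71.8, 14.6 and 64.2 in knockdown libraries, against 41.6 in the third scrambled library.

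KCTD7, mutated in a progressive myoclonic epilepsy, was covered over 360, 91 and 748 nt in knockdown libraries, against 0, 0 and 300 nt in scrambled libraries. The knockdown library was longer in all 3 pairs, by 360, 91 and 448 nt, although the third scrambled library exceeded the second knockdown library. The exact permutation test gave p = 0.2 without pairing, where 3 against 3 libraries cannot go below 0.1, and the exact sign-flip test over pairs gave p = 0.25, the smallest that 3 pairs allow. Its single region lay at chr7:66103973-66104750 on the plus strand.

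The related genes behaved differently in calls. KCTD2, close to KCTD5 in sequence, was called in all 6 libraries, over 901, 242 and 991 nt in knockdown, against 781, 61 and 901 nt in scrambled libraries. It was thus longer in the knockdown of each pair. KCTD17, the other relative, was covered over 422, 0 and 270 nt in knockdown libraries, against 61, 0 and 61 nt in scrambled libraries. Both polyadenylated RNA knockdown libraries exceeded both scrambled ones, and total RNA gave no call (exact permutation test p = 0.4). These lengths sum weak peaks, with best percentiles of 15 and 39.2 in knockdown libraries 1 and 3, against 21.4 and 1.63 in scrambled ones. In pair 1 the knockdown and scrambled peaks lay in different regions. KLHL32 showed a like layout, with 210, 0 and 270 nt in knockdown libraries, against 0, 0 and 61 nt in scrambled libraries. Its best percentiles were also low, at 22 and 21.7 in knockdown libraries 1 and 3 and 6.7 in scrambled library 3. KCTD17 and KLHL32 were picked out after their values were seen. The share of all genes with this layout was not counted, so how common it is remains unknown.

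No adaptor had covered lengths that separated the conditions fully. Over all genes, covered length was above every scrambled library in every knockdown library for 0.285% and below for 0.0285%, and 0 of the 47 genes were among either. The smallest possible permutation p of 0.1 was therefore reached by 0 of the 47 genes, against 33 of 10536 genes, and no adaptor could pass a threshold of 0.05 in this design.

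The 13 adaptors called in all 6 libraries can be compared in every pair. Covered length was longer in the knockdown of all 3 pairs in 5 of them, KLHL21, KLHL36, KLHL42, KBTBD6 and KCTD2 (34.1% of the 2452 genes called in all 6 libraries were). It was shorter in all 3 pairs in 1, KLHL11 (2.08% of those genes). For each adaptor named here the exact sign-flip test over pairs gave p = 0.25, the smallest that 3 pairs allow. The median log2 ratio of knockdown over scrambled was 0.51, -0.18 and 0.07 in pairs 1, 2 and 3 for the 13 adaptors, beside 0.53, 0.11 and 0.06 for all such genes. The knockdown was longer in pair 1 in 11 of the 13 adaptors (91.0% of all such genes), in pair 2 in 6 (52.4%) and in pair 3 in 8 (58.9%).

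**Figure D3:**
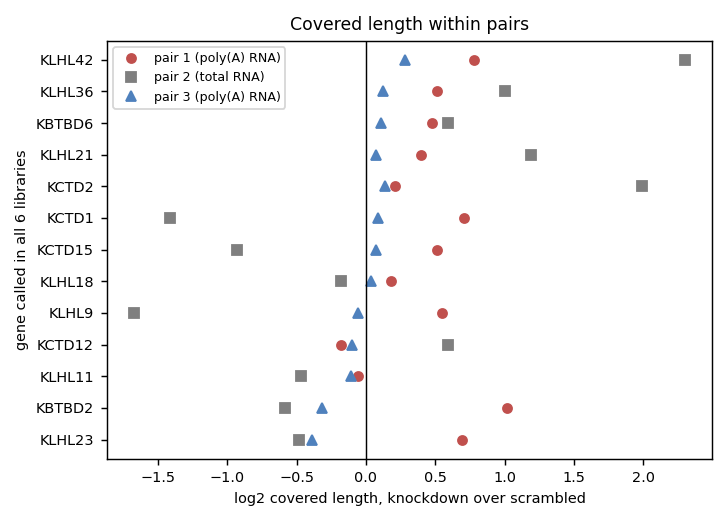
Log2 ratio of covered length, knockdown over scrambled, for the 13 adaptors called in all 6 libraries (rows). Circles mark pair 1, squares the total RNA pair 2 and triangles pair 3. Pair 3 lies between -0.39 and 0.28, while pair 2 spans -1.67 to 2.30.

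Among the KLHL adaptors of mitosis, KLHL21, which with KLHL9 and KLHL13 directs CUL3 to Aurora B, was covered over 1980, 961 and 2010 nt in knockdown libraries, against 1501, 421 and 1921 nt in scrambled libraries. Its means were 1650 ± 597.2 nt in knockdown and 1281 ± 773.8 nt in scrambled libraries (SD, n = 3 each, exact permutation test p = 0.5). KLHL21 alone in the group had 2 regions called in all 6 libraries. Its partner KLHL9 was covered over 1701, 179 and 2539 nt in knockdown libraries, against 1165, 569 and 2654 nt in scrambled libraries. KLHL9 was thus longer in the knockdown of the first pair and shorter in the other two.

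KLHL13, the third adaptor of this set, had almost equal lengths, with 451, 0 and 661 nt in knockdown libraries, against 452, 0 and 691 nt in scrambled libraries. KLHL18, an adaptor for Aurora A, had 1831, 452 and 2219 nt in knockdown libraries, against 1621, 512 and 2161 nt in scrambled libraries. The pairs of KLHL18 differed by no more than 210 nt in either direction.

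KLHL42, which targets the microtubule-severing enzyme katanin, was covered over 931, 301 and 1349 nt in knockdown libraries, against 543, 61 and 1110 nt in scrambled libraries. KLHL36 was covered over 1695, 894 and 1902 nt in knockdown libraries, against 1190, 448 and 1753 nt in scrambled libraries. Both were longer in every knockdown library than in its pair, by 239 to 388 nt in KLHL42 and by 149 to 505 nt in KLHL36. The ranges of the conditions overlapped (exact permutation test without pairing p = 0.6 for each, exact sign-flip test over pairs p = 0.25 for each).

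KLHL11, known as an autoantigen in encephalitis linked to testicular tumours, was the 1 adaptor shorter in each knockdown library than in its pair. It had 1285, 390 and 1461 nt in knockdown libraries, against 1344, 539 and 1581 nt in scrambled libraries. The differences within pairs were 59 to 149 nt, and the ranges of the conditions overlapped. The exact permutation test without pairing gave p = 0.6, and the exact sign-flip test over pairs p = 0.25, the smallest that 3 pairs allow.

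The KBTBD genes were called in nearly the same libraries in both conditions. KBTBD2, which directs CUL3 to the regulatory subunit of PI3-kinase, was covered over 1469, 541 and 1588 nt in knockdown libraries, against 722, 808 and 1977 nt in scrambled libraries. It was longer in the knockdown of pair 1 and shorter in pairs 2 and 3. KBTBD8, an adaptor of neural crest formation, had 1224, 0 and 1313 nt in knockdown libraries, against 926, 0 and 1432 nt in scrambled libraries.

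KBTBD6, which with KBTBD7 targets the Rac activator TIAM1, held the region that separated the conditions most plainly. The gene as a whole was covered over 1167, 272 and 1257 nt in knockdown libraries, against 839, 181 and 1165 nt in scrambled libraries (exact permutation test p = 0.5). A main region at chr13:41704547-41705711 on the minus strand was called in all 6 libraries. A second region at chr13:41705861-41706070, upstream of it along the transcript, was called over 150, 121 and 180 nt in knockdown libraries, against 0, 0 and 0 nt in scrambled libraries.

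Of all 21675 regions, 0.129% were called in every knockdown and no scrambled library, and this was 1 of the 99 adaptor regions. The reverse, a region of every scrambled and no knockdown library, occurred in 0.00923% of all regions and in 0 adaptor regions. The scores of the second KBTBD6 region were weak, at percentiles 4.65, 29.2 and 26.5 of the knockdown lists, below the median in each. KBTBD7, its partner, had 1050, 0 and 1319 nt in knockdown libraries, against 631, 0 and 1319 nt in scrambled libraries.

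**Figure D4:**
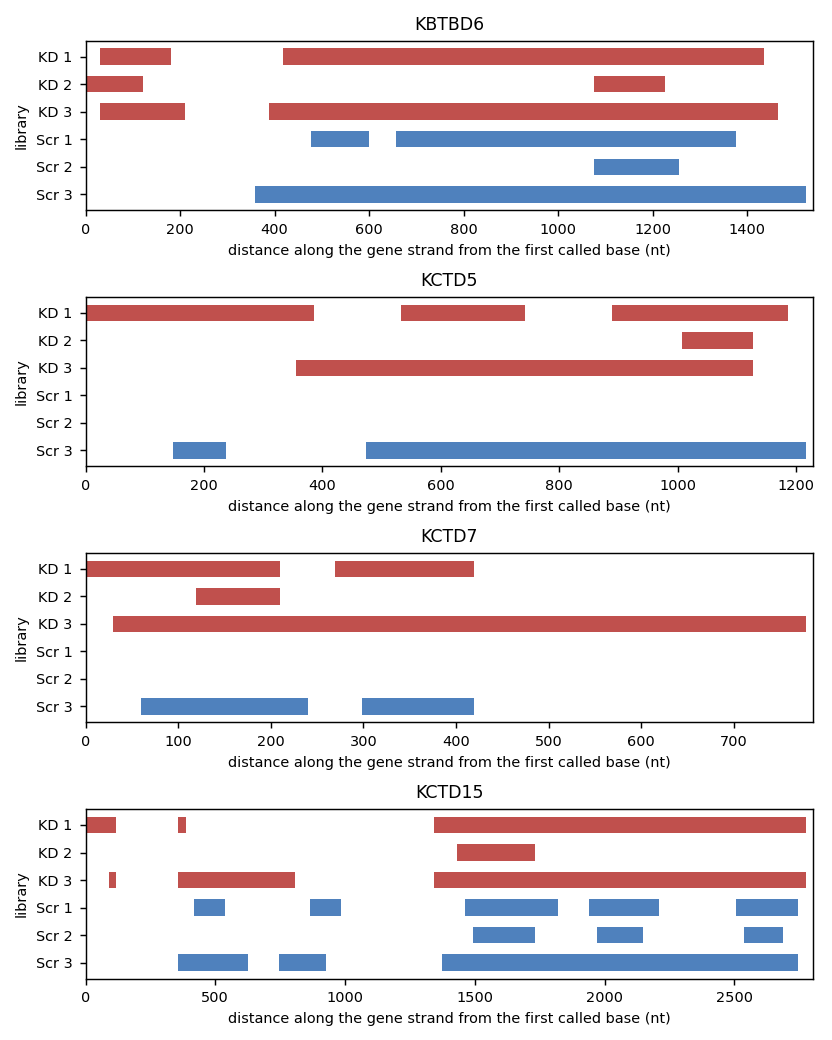
Exon blocks of peaks in KBTBD6, KCTD5, KCTD7 and KCTD15 by library (ALKBH5 knockdown red, scrambled blue), against distance in nt along the gene strand from the first called base. A peak that spans an intron is drawn as several blocks. KBTBD6 shows an upstream region in the 3 knockdown libraries alone, and KCTD15 shows 2, 1 and 2 peaks in knockdown libraries, against 5, 3 and 3 in scrambled libraries.

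Across the group, 14 of the 99 regions were called in all 6 libraries (14.1%, against 12.7% of all regions). Another 24 were called in 1 library, and the share of all regions called in 1 library was not counted. Regions gained in at least 2 pairs numbered 3 (3.44% of all regions), in KBTBD6, KCTD5 and KCTD7. A single region was lost in at least 2 pairs (1.15% of all regions). It lay in KLHL20 at chr1:173754731-173755001 on the plus strand and was called over 151 nt in scrambled libraries 1 and 3, at percentiles 8.09 and 8.15. KLHL20 as a whole was called equally often, with 872, 0 and 840 nt in knockdown libraries, against 422, 0 and 1021 nt in scrambled libraries. Of the 99 regions, the first pair gained 20 (21.2% of all regions) and lost 8 (7.99%), the second gained 10 (6.01%) and lost 6 (5.42%), and the third gained 11 (11.3%) and lost 11 (13.2%).

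KCTD1 and KCTD15 bind AP-2 transcription factors and hold back their activity. KCTD15 was covered over 1584, 299 and 1912 nt in knockdown libraries, against 1110, 569 and 1823 nt in scrambled libraries, with ranges that overlapped. Its number of peaks was 2, 1 and 2 in knockdown libraries, against 5, 3 and 3 in scrambled libraries. Every knockdown library thus had fewer peaks than every scrambled library (exact permutation test p = 0.1, the smallest possible). In its main region, chr19:34303681-34305114 on the plus strand, the first knockdown library had a single peak of 1434 nt, while the first scrambled library had separate peaks that together covered 869 nt. In the total RNA pair this region held 1 peak of 299 nt in knockdown, against 3 peaks over 569 nt in scrambled. In pair 3 it was a single peak in each library, of 1434 nt in knockdown and 1374 nt in scrambled.

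Fewer peaks in every knockdown than in every scrambled library were found in 1 of the 47 genes, KCTD15, against 0.152% of all genes, and more peaks in 0 of the 47, against 0.209%. KCTD15 was singled out for peak number after its values were seen. KCTD1 had 1920, 91 and 1981 nt in knockdown libraries, against 1172, 242 and 1862 nt in scrambled libraries. Both genes were longer in the knockdown of pairs 1 and 3 and shorter in that of the total RNA pair, as was KLHL18, which makes 3 of the 13 adaptors called in all 6 libraries (17.7% of all such genes).

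Of the GABA-B receptor subunits, KCTD12 was covered over 1773, 902 and 1742 nt in knockdown libraries, against 2013, 601 and 1862 nt in scrambled libraries. It ran the other way, shorter in the knockdown of pairs 1 and 3 and longer in total RNA, the 1 such gene of the 13 (1.06% of all such genes). KCTD16 was called over 180 nt in the third knockdown library, against 360 nt in the third scrambled library. Outside that set, KCTD10 had 301, 121 and 361 nt in knockdown libraries, against 181, 0 and 390 nt in scrambled libraries.

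Other genes of the pathway were counted in the same way and not compared with the adaptors by a test. Of 24 genes of the CUL3 ligase core and its regulators, 15 had a peak. Of these 15, 5 were called in all 6 libraries (23.3% of all genes were), 5 in more knockdown libraries (26.1% of all genes), 2 in fewer (17.1% of all genes) and 8 equally often (56.8% of all genes). CUL3 itself was called over 0, 0 and 91 nt in knockdown libraries, against 0, 122 and 301 nt in scrambled libraries. CAND1, which exchanges the substrate adaptors of cullins, had 362, 91 and 962 nt in knockdown libraries, against 91, 272 and 1143 nt in scrambled libraries. Of 21 other BTB adaptors, 18 had a peak. Of these 18, 7 were called in all 6 libraries, 5 in more knockdown libraries, 1 in fewer and 12 equally often, to be read beside 23.3%, 26.1%, 17.1% and 56.8% of all genes. KEAP1, the adaptor for NRF2, was covered over 595, 0 and 833 nt in knockdown libraries, against 298, 0 and 774 nt in scrambled libraries. All of these ranges overlapped between the conditions.

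Of 30 substrates and partners known for KLHL, KBTBD and KCTD adaptors, some of them for adaptors with no peak here, 19 had a peak. Of these 19, 4 were called in all 6 libraries, 6 in more knockdown libraries, 4 in fewer and 9 equally often, again beside 23.3%, 26.1%, 17.1% and 56.8% of all genes. WNK4, a target of KLHL2, was covered over 1021, 241 and 660 nt in knockdown libraries, against 180, 0 and 121 nt in scrambled libraries, and every knockdown library was above every scrambled one, as in 0.285% of all genes. DVL1, a target of KLHL12, which had no peak in the lists, had 330, 61 and 270 nt in knockdown libraries, against 0, 0 and 61 nt in scrambled libraries, with the second knockdown library equal to the third scrambled one. TIAM1, the target of KBTBD6 and KBTBD7, had 1349, 751 and 1559 nt in knockdown libraries, against 1080, 660 and 1380 nt in scrambled libraries. WNK4 and DVL1 were picked from the list after their values were seen.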

How the data were processed

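MeRIP-seq peak lists of 6 immunoprecipitates (3 ALKBH5 knockdown, 3 scrambled) were analysed. Per the submitters' processing notes, hg19, CASAVA 1.8.2, TopHat2 and SAMtools were used. The peak caller, its threshold and the role of each tool were not given in the sources used here. The peaks' deposited score, between 2e-40 and 0.011, was read as a p-value because of that range and served only to rank peaks within a list. Other deposited columns give position and exon block lengths in nt. Lists were made per library, with no pooling.

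Gene numbers were turned into symbols with a RefSeq table of GRCh38.p14, used for names only (10500 of 10536 matched). Peaks with no gene number, 6692 of 81380, entered regions but not genes. Members and lists were chosen with earlier results of these data known. Named genes were those differing by 2 or 3 libraries, the 3 with the longest mean coverage per family, those called in all 6 libraries and longer, or shorter, in the knockdown of all 3 pairs, and those called in 1 library. Single genes were compared with two-sided exact permutation tests, and paired by replicate number, which the labels tie to a protocol. Alternatives were score and list-size filters, standard chromosomes, positions listed for 1 gene, other joining rules, peak number and leaving out libraries. Scripts ran in python 3.11.15 with numpy 2.4.6 and pandas 2.3.3 and were tested on simulated data.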

Additional observations from a re-analysis of the deposited data

Results flagged for a closer look

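In 4 genes called in all 6 libraries the total RNA pair differed in direction from both polyadenylated RNA pairs, in covered length of knockdown minus scrambled. Of all genes called in all 6 libraries, 17.7% were longer in the knockdown of pairs 1 and 3 and shorter in pair 2 (3 of the 13 adaptors), and 1.06% ran the opposite way (1 of the 13). This difference between protocols was not tested, since there was 1 total RNA pair. The difference for KCTD1 was -151 nt in total RNA, beside 748 and 119 nt in pairs 1 and 3. For KCTD15 it was -270 nt, beside 474 and 89 nt. For KLHL18 it was -60 nt, beside 210 and 58 nt. KCTD12 ran the opposite way, with 301 nt in total RNA, beside -240 and -120 nt.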

How the results depend on the processing

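Leaving out 1 library or 1 pair at a time moved the knockdown minus scrambled difference per library between -6.833 and 9.5 genes called, between -19.5 and 20.67 peaks and between -8.014 and 16.48 kb covered. It moved the genes called more often in knockdown between 3 and 28, those called less often between 1 and 25 and those called in every library used between 13 and 40. With 1 library left out, groups of 2 and 3 libraries were compared, so shares of libraries were used, not numbers. A gene called in all 4 polyadenylated RNA libraries and neither total RNA library then had unequal shares by construction. This applies to 16 of the 47 genes. On these shares, each of the 6 libraries moved a count by over 1.5 times. Genes called less often in knockdown came to 23, 24 and 25 without knockdown 1, knockdown 3 and scrambled 2. Those called more often came to 28, 25 and 28 without knockdown 2, scrambled 1 and scrambled 3. Without total RNA, 3 genes were called in more and 1 in fewer knockdown libraries, where the shares of all genes were not counted. Regions gained in at least 2 pairs ranged from 1 to 4 and regions lost from 0 to 1 when a pair was left out. Leaving out 1 library changes the pairs of a region as leaving out its pair does, so it was not run for regions.

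The difference in peaks reversed to -1.667 with the best-scored 50% of each list and to -0.6667 with lists of equal size within pairs. With at least 2 peaks per call, 10 genes were called in fewer knockdown libraries and 1 in all 6. KCTD gains in total RNA fell to 2 with the best-scored 50%. Counting these gains was chosen after the data were seen, as was leaving out genes with shared positions. With all 6 lists at equal size 5 regions were gained and 3 lost in at least 2 pairs, and joining at 50 bp of overlap within a gene left 0 lost. With the best-scored 50%, the covered length difference reversed to 100 nt in KCTD12 and -29.33 nt in KLHL9. By number of peaks the sign turned in KBTBD2 (-0.3333), KBTBD8 (-0.3333), KCTD1 (-0.6667), KCTD12 (0.3333), KCTD15 (-2), KLHL18 (-0.6667) and KLHL21 (-0.3333).

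Leaving out 1 library reversed covered length differences of 11 named genes, over -193.2 to 434.3 nt in KBTBD2, -103.3 to 483.7 in KBTBD6, -333.3 to 482.5 in KBTBD8, -186.3 to 858.5 in KCTD1, -129.7 to 365 in KCTD2, -465.2 to 265.5 in KCTD12, -225.8 to 580.7 in KCTD15, -522.7 to 657.3 in KLHL9, -417.2 to 218.3 in KLHL11, -390.3 to 593.7 in KLHL18 and -60.67 to 714 in KLHL21. Of the others, the range was 168.3 to 595 nt in KCTD5, 125.5 to 454 in KCTD7, 25.5 to 678 in KLHL36 and 33.83 to 568.7 in KLHL42, lowest without scrambled 2 in KLHL36 and KLHL42. KLHL14 ranged from -179.5 to 0, the last without scrambled 3, which held its only peak. With the replicate number as a block the differences of 1.667 genes, 1.667 peaks and 3.603 kb are unchanged by construction, so this setting is no check on them. No sign-flip p of a named gene went below 0.25, the smallest that 3 pairs allow. Apart from the unequal number of libraries per group, the causes of these changes were not tested. Depth is unknown, so what weak peaks were missed cannot be bounded.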
